A study of Mus musculus with 6 samples.

Results

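Collagens are the triple-helical proteins of the extracellular matrix, and each molecule is assembled from 3 alpha chains, the products of separate genes. The chains described here were the protein-coding genes of the deposited count table whose symbol has the form Col, number, a, number, and 44 of its 54100 genes, or of its 21783 protein-coding genes, met that rule. They were divided by the kind of structure they build into 11 fibrillar chains, 6 basement membrane chains (Col4a), 6 type VI chains, 9 fibril-associated chains, 2 multiplexins, 4 transmembrane chains, 3 network-forming chains and 3 remaining chains. The measurements are bulk RNA-seq of cryosectioned mouse testis, with 3 libraries from mice carrying a deletion of H3t and 3 from wild-type (WT) mice. H3t is a histone H3 variant of the testis, listed in the table as H3f4, and the submitters generated the mutants to study Leydig cells, the testosterone-producing cells of the interstitium, where spermatogenesis is disrupted. The sources used here give no strain, no age, no extent of the deletion and no statement that each library came from its own animal. The p-values therefore reflect the spread among these 6 libraries, part of which may be technical.

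Fibrillar collagens such as types I and III form the banded fibrils that give connective tissue its tensile strength, and fibril-associated collagens sit on the surface of those fibrils. Type IV chains polymerise into the sheet that underlies epithelia, and in the testis such a sheet, together with peritubular myoid cells and a thin layer of fibrillar collagen, forms the wall of the seminiferous tubule. Type VI collagen builds beaded microfilaments close to that wall and around interstitial cells, and the multiplexins, types XV and XVIII, are carried at the outer face of basement membranes.

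Libraries held 8037826 to 10702930 counts. H3f4 had 0 counts in each of the 3 deletion libraries, against 390, 571 and 356 counts in the WT libraries, at least 643-fold lower when the floor of 3 counts over the group is put in place of 0. The testes also differed in their germ cell messages. Summed over a list of 10 spermatid genes, CPM (counts scaled to a common library size with TMM factors) ran from 5.82 to 65.9 in deletion libraries, highest in replicate 1, and from 21160 to 23034 in WT libraries, and all 10 fell, among them Prm2 and Smcp. All 9 listed spermatocyte genes fell as well, with sums of 241 to 295 CPM in deletion libraries and 6383 to 6560 CPM in WT libraries. Hspa2 and Ldhc were the most abundant and weigh most in these sums. The fall was uneven, with log2 changes, deletion minus WT, from -9.65 for Pgk2 to -2.28 for Sycp3. Sycp1, Meiob and Hormad1 were at -2.30, -2.38 and -2.53. Lists of somatic cells moved the other way: 16 of 16 Sertoli cell genes rose, Clu and Ctsl being the most abundant, as did 11 of 11 Leydig cell genes, led by Ptgds and Cyp17a1. In bulk tissue, fewer cells of a type and less RNA per cell cannot be told apart. Mitochondrial genes took 21.6 to 22.7% of the counts of deletion libraries and 5.59 to 6.44% of those of WT libraries. The part of these shifts in the results below was not tested, except where the chains are set against a cell type's own genes or against each other.

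Of the 44 chains, 41 passed the filter on low counts, and 36 of these, 87.8%, were called by the quasi-likelihood test of edgeR (adjusted p under 0.05, Benjamini-Hochberg over all tested genes). The background was as high, with 84.5% of the 17038 genes tested called. In the deletion 22 chains rose, 53.7% of those tested, where 38.4% of all genes rose, and 14 fell, 34.1%, where 46.1% of all genes fell. Deletion and WT libraries did not overlap in 85.4% of the chains and in 85.9% of all genes. The median log2 change, deletion minus WT, was 1.04 over the tested chains and -0.19 over all genes. Sorted by structure, the chains went in different directions. The 6 basement membrane chains, 5 of 6 type VI chains, 6 of 11 fibrillar chains and both multiplexins rose, whereas all 8 tested fibril-associated chains fell. The 5 chains that were not called were Col5a1, Col11a2, Col24a1, Col23a1 and Col17a1, and the 3 not tested were Col9a2, Col8a1 and Col10a1.

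**Figure D1:**
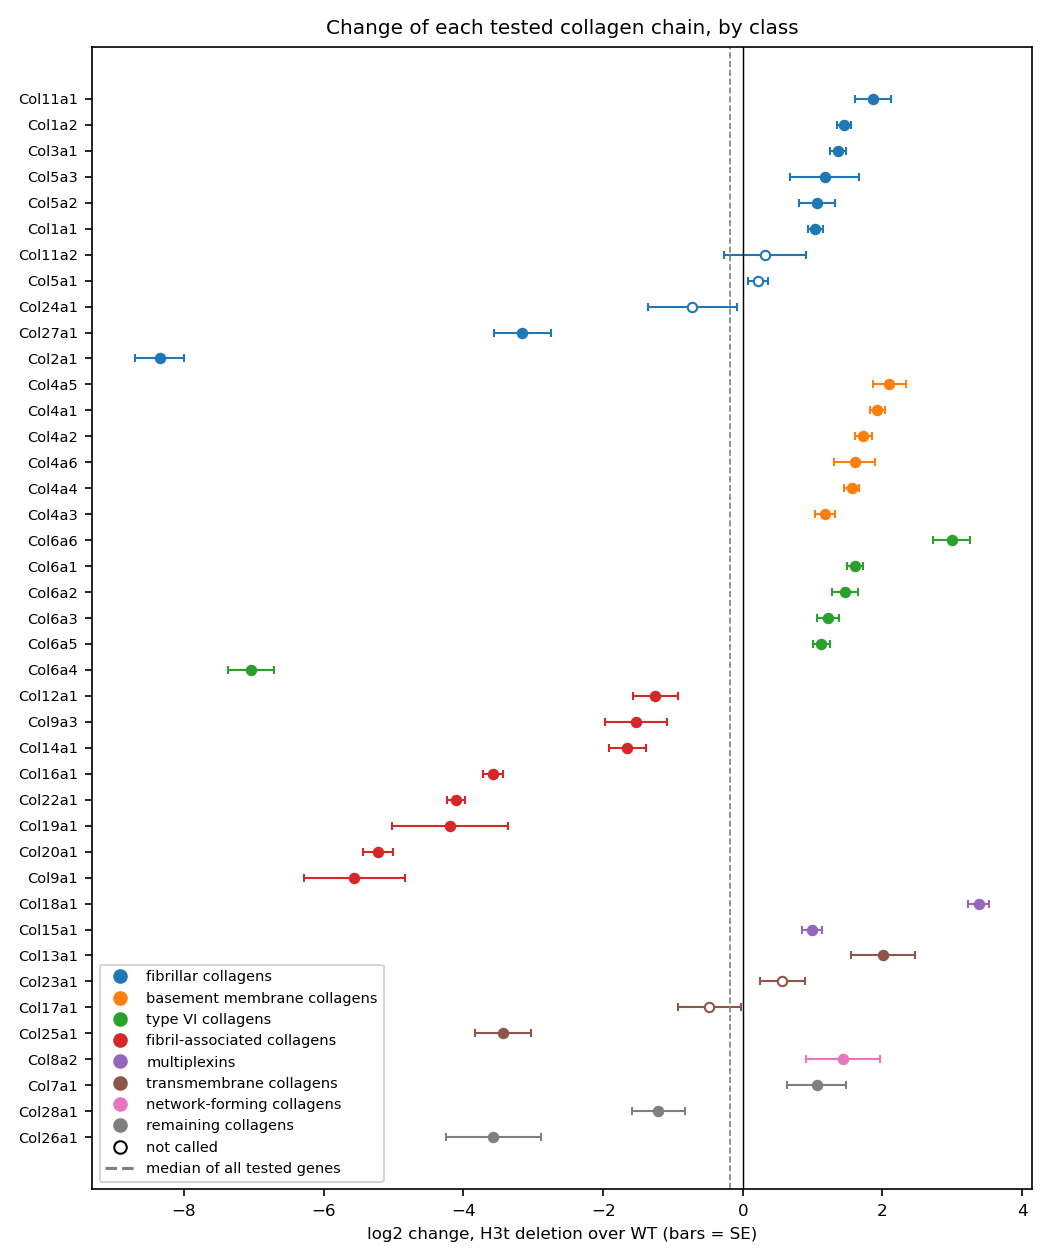
Log2 change, H3t deletion over WT, of each of the 41 tested collagen chains by class, with TMM scaling. Points are fitted changes with bars of 1 SE, filled where called, and the dashed line marks the median of all genes at -0.19. The SE is the absolute change over the square root of the F statistic of edgeR's test. For chains with few counts in a group it can be smaller than counting error. All Col4a chains lie to the right of 0 and all fibril-associated chains to the left. Set against the Sertoli list, 2 chains were called higher and 32 lower, where 749 of all 17038 genes were higher and 12962 lower.

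The rises depend on what a chain is measured against. The 14 chains that fell stayed below 0 under all 8 scalings used. The scalings to a cell type list, however, used somatic lists whose genes had mostly risen, which moves every gene down. No germ cell list was held level. With TMM scaling the medians of the spermatid and spermatocyte lists were -9.58 and -4.58, and the falls relative to such genes were not tested. Of the 22 chains that rose, 20 were below 0 with the Sertoli list level, 21 with the Leydig list level and 2 with the mesenchyme list level. With the libraries scaled so that the Sertoli list was level, the median of all genes moved to -2.32. Then 2 chains, Col18a1 and Col6a6, were called higher and 32 lower. Of all 17038 genes, 749 were called higher and 12962 lower, so most genes of any kind were lower under this scaling. The Leydig list genes had risen by a median of 3.16 on the log2 scale. With that list level edgeR called 0 chains higher and 39 lower, also 0 higher at an unadjusted p under 0.05. Of all 17038 genes, 64 were then higher and 15450 lower. Counts of chains or listed genes under these scalings, here and below, are to be read beside those of all genes. DESeq2 and limma were not run with a list held level. Scaling by median-of-ratios, upper quartile or library total alone put the median of all genes at -0.36, 0.35 and 0.45, and these gave 20, 24 and 24 chains higher and 14, 12 and 11 lower. The share of all called genes that were higher was 45.4% with TMM and 56.6% with no scaling factor. A rise below is therefore one relative to the TMM-scaled library, and where a class turned under another scaling this is said with it.

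**Figure D2:**
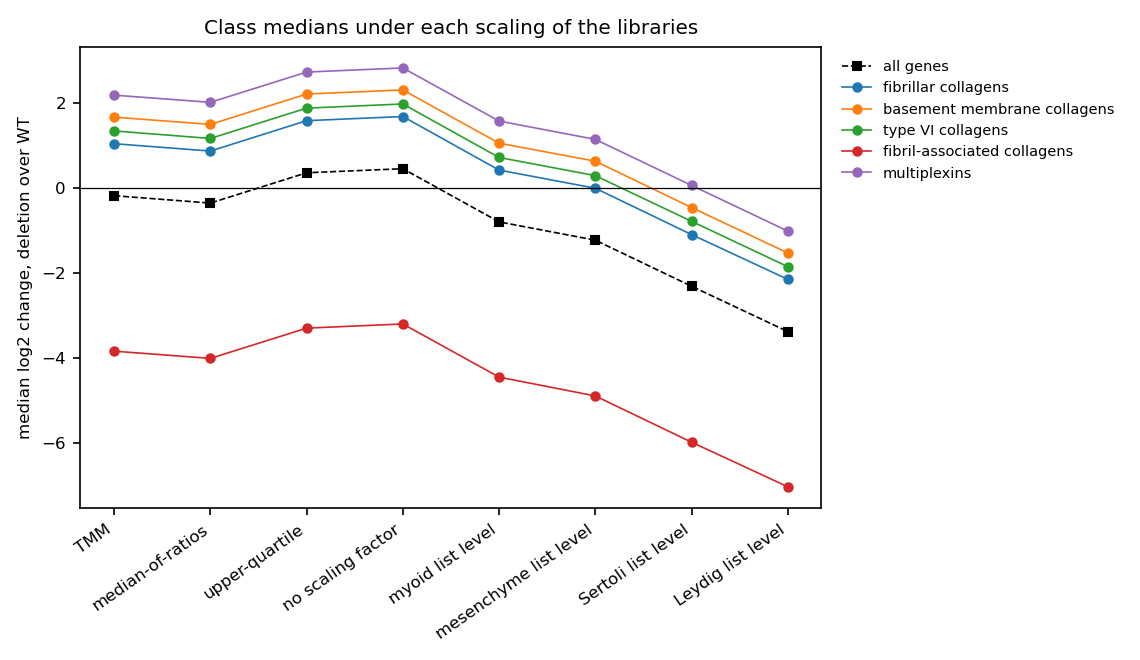
Median log2 change, H3t deletion over WT, of each of the 5 largest or most abundant classes (lines) under 8 scalings of the libraries, with the median of all tested genes as a dashed line. Fibrillar, basement membrane and type VI medians lie above 0 under the first 5 scalings and below it with the Sertoli or Leydig list level. The fifth, the myoid list level, includes Actg2 at -5.49, while 8 of its 10 members rose. Fewer chains were called higher without Actg2 in that list, as given below. The fibrillar median is -0.01 with the mesenchyme list level. The fibril-associated median lies below 0 under all 8, none of which holds a germ cell list level.

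All 6 basement membrane chains rose, with a median log2 change of 1.66, and in each of them the groups were apart. With the Sertoli list level edgeR called 0 higher and 3 lower, the same at an unadjusted p under 0.05. Under that scaling 12962 of all 17038 genes were lower. With the Leydig list level all 6 were lower, as were 15450 of all genes. The chains are encoded as 3 head-to-head pairs. Col4a1 and Col4a2 make the form found in basement membranes throughout the body. Col4a1 (ENSMUSG00000031502, GRCm38 chr8:11198423-11312826, minus strand) had 112, 107 and 117 CPM in deletion libraries, against 31.9, 31.3 and 25.2 CPM in WT libraries. Its log2 change was 1.93 (SE 0.11, edgeR adjusted p = 2.51e-10). Its partner Col4a2 had 91.2, 101 and 94.6 CPM in deletion libraries, against 27.4, 33.5 and 25.4 CPM in WT libraries, a log2 change of 1.73 (SE 0.12, edgeR adjusted p = 2.05e-09). In both genes every deletion library stood above every WT library.

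Col4a1 and Col4a2 start 21 bases apart on opposite strands, with 22 bases of exon in common. The bases before the Col4a1 start therefore lie inside Col4a2, and each gene has its own window. That of Col4a1 is printed here because the 2 chains rose together. The window runs from 250 bases before to 50 bases after the Col4a1 start of RefSeq (GRCm38.p6, chr8:11312777-11313076, minus strand). Capitals mark matches, on either strand, to the GC box GGGCGG or to the CCAAT box.
Col4a1: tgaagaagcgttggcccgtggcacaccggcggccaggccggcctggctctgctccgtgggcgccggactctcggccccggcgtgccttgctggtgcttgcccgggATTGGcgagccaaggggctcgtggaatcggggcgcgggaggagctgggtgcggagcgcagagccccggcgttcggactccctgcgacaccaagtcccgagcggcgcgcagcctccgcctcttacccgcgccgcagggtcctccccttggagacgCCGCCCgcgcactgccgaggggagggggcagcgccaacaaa
The window holds 1 GC box and 1 CCAAT box and no match to TATAAA or to the CRE motif TGACGTCA. Of its bases 74.0% are G or C. The RefSeq window of Col4a2, not printed, holds 3 GC boxes and 1 CCAAT box. RefSeq windows were at hand for 35 of the 44 chain genes, 38 windows in all. GGGCGG was in 60.5% of them and in 35.7% of 32851 windows of all genes, CCAAT in 34.2% and 37.4%, TATAAA in 13.2% and 13.6%, and TGACGTCA in 2.63% and 1.79%. These are letter matches, described as such.

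Col4a3, Col4a4 and Col4a5 form the network of the kidney glomerulus, whose loss causes Alport syndrome, and the same chains occur in the wall of the seminiferous tubule. Col4a4 was the most abundant type IV chain by counts, at 137, 129 and 134 CPM in deletion libraries, against 38.6, 49.99 and 46.5 CPM in WT libraries. It rose by 1.56 on the log2 scale (SE 0.11, edgeR adjusted p = 1.71e-09). Col4a3, which starts 72 bases from Col4a4, had 54.7, 57.5 and 56.8 CPM in deletion libraries, against 31.6, 21.7 and 22.0 CPM in WT libraries, a log2 change of 1.17. That was the smallest change in the class. Reads over 5.65% of its exon length could belong to an overlapping transcript on the opposite strand.

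The X-linked pair stood lower. Col4a5 had 29.9, 37.1 and 35.2 CPM in deletion libraries, against 11.2, 8.37 and 4.37 CPM in WT libraries, and with a log2 change of 2.10 moved furthest of the 6. Col4a6, which joins Col4a5 in the sheet around smooth muscle and some epithelia, had 8.75, 14.1 and 8.77 CPM in deletion libraries, against 2.80, 3.49 and 4.09 CPM in WT libraries, a log2 change of 1.60. The 6 chains together took 27.7% ± 1.51 of collagen counts in the deletion and 12.3% ± 1.04 in WT (SD, n = 3 each). Part of that gain in share follows from the fall of the fibril-associated share of the same total.

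Type VI collagen was the second class in which nearly all members rose: 5 of 6 chains were higher and 1, Col6a4, was lower. Relative to the Sertoli list 1 was higher and 5 lower, where 12962 of all 17038 genes were lower. The classical molecule combines the products of Col6a1, Col6a2 and Col6a3. Col6a1 had 108, 88.5 and 102 CPM in deletion libraries, against 34.6, 31.3 and 32.1 CPM in WT libraries, a log2 change of 1.61 (SE 0.11, edgeR adjusted p = 2.12e-09). Col6a2 had 77.4, 43.3 and 49.6 CPM in deletion libraries, against 19.6, 20.2 and 21.9 CPM in WT libraries, a log2 change of 1.46. Col6a3, the long chain, had 64.0, 42.6 and 47.8 CPM in deletion libraries, against 22.9, 21.2 and 22.6 CPM in WT libraries, a log2 change of 1.21. In all 3, the first deletion library was the highest of the 6 and the groups were apart.

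Col6a4, Col6a5 and Col6a6 are long chains related to Col6a3 that can take its place in the molecule. They lie side by side on the minus strand of chromosome 9, with 28810 and 27917 bases between neighbours, and they went opposite ways. Col6a5 (chr9:105856078-105960643) had 146, 105 and 125 CPM in deletion libraries, against 56.2, 53.8 and 62.5 CPM in WT libraries, a log2 change of 1.12 (SE 0.12, edgeR adjusted p = 4.09e-07). Col6a6 (chr9:105687809-105828160) had 31.1, 27.2 and 25.2 CPM in deletion libraries, against 1.56, 4.42 and 4.23 CPM in WT libraries, a log2 change of 2.99 (SE 0.26, edgeR adjusted p = 3.71e-08). Both groups were well apart in each gene, and Col6a6 was 7.96-fold higher in the deletion by the fitted value. Col6a4 (ENSMUSG00000032572, chr9:105989454-106096783) had 0.276, 0.181 and 0.0953 CPM in deletion libraries, against 23.2, 29.3 and 25.9 CPM in WT libraries. That is 6 counts over the 3 deletion libraries and 585 over the WT libraries, a WT level 143 times that of the deletion (95% counting interval 65.2 to 391), and edgeR's log2 change was -7.04 (SE 0.33, adjusted p = 1.62e-11). For Col6a4 the counting interval is wider than the SE implies. Transcripts of the 3 genes have 1.58 to 3.70% of their 50-base words in common with another gene.

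The promoter windows of these neighbours are shown because the genes share a locus and moved in opposite directions. All are from RefSeq on GRCm38.p6, minus strand, 250 bases before to 50 after the start, at chr9:106096642-106096941 for Col6a4, chr9:105960594-105960893 for Col6a5 and chr9:105828036-105828335 for Col6a6, with the same motifs in capitals.
Col6a4: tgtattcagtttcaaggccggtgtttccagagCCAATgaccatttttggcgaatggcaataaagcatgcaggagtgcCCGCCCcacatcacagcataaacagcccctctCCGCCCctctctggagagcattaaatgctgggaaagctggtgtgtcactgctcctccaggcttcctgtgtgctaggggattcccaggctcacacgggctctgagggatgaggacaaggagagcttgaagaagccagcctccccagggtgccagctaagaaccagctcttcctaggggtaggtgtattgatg
Col6a5: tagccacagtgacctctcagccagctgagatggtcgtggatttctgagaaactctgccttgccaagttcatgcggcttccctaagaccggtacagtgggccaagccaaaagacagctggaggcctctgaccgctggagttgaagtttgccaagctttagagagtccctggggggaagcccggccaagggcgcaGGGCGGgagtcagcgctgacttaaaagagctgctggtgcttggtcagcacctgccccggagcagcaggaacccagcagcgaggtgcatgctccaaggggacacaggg
Col6a6: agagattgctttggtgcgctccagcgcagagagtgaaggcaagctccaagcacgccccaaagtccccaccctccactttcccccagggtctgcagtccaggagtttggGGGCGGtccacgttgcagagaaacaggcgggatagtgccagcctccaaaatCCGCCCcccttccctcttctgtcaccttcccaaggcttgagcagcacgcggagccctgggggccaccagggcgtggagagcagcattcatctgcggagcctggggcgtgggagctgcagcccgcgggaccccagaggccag
GC boxes number 2, 1 and 2 in the windows of Col6a4, Col6a5 and Col6a6, and the CCAAT match is in that of Col6a4.

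Fibrillar chains were divided. Of 11 tested, 6 rose, 2 fell and 3 were not called, with a median of 1.04. With the Sertoli list level edgeR called 0 higher and 9 lower, the same at an unadjusted p under 0.05. Of all 17038 genes, 12962 were lower under that scaling. The most abundant fibrillar chains that rose were those of ordinary connective tissue. Col1a2, the second chain of type I collagen, had 199, 184 and 185 CPM in deletion libraries, against 67.7, 61.4 and 79.6 CPM in WT libraries, a log2 change of 1.45 (SE 0.10, edgeR adjusted p = 2.84e-09). Col3a1, which forms type III fibrils of 3 like chains, had 192, 154 and 155 CPM in deletion libraries, against 69.0, 59.6 and 66.5 CPM in WT libraries, a log2 change of 1.36 (SE 0.11, edgeR adjusted p = 1.02e-08). Col1a1, present as 2 chains in each type I molecule, had 141, 140.3 and 114 CPM in deletion libraries, against 66.3, 59.4 and 67.2 CPM in WT libraries, a log2 change of 1.04 (SE 0.11, edgeR adjusted p = 2.33e-07). Groups were apart for all 3.

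Type V chains co-assemble with type I and set the width of its fibrils, and they did not move alike. Col5a1 had 30.8, 30.2 and 26.9 CPM in deletion libraries, against 27.7, 25.8 and 22.1 CPM in WT libraries. These ranges overlap, and its log2 change of 0.22 was not called (edgeR adjusted p = 0.177), although it was called higher with upper-quartile scaling or no scaling factor and lower with the Sertoli, Leydig, myoid or mesenchyme list level. Col5a2 had 13.4, 9.59 and 11.2 CPM in deletion libraries, against 7.005, 4.88 and 4.65 CPM in WT libraries, a log2 change of 1.06. Col5a3 had 1.66, 2.71 and 2.38 CPM in deletion libraries, against 0.623, 0.930 and 1.41 CPM in WT libraries, and its call (log2 1.17, edgeR adjusted p = 0.0368) was lost without deletion replicate 2 or 3, without WT replicate 1 or 2, with median-of-ratios scaling, with no low-count filter and by DESeq2.

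The fibrillar chains best known from cartilage went both ways. Col2a1 (ENSMUSG00000022483, chr15:97975602-98004695, minus strand), the chain of type II collagen, had 0.184, 0 and 0.191 CPM in deletion libraries, against 44.1, 52.6 and 37.4 CPM in WT libraries. The sums are 4 counts over the deletion libraries and 1000 over the WT libraries, a ratio of WT to deletion of 366 (95% counting interval 143 to 1347), with an edgeR log2 change of -8.35 (SE 0.35, adjusted p = 4.11e-12). It was the furthest fall of any tested chain, though its counting interval is wider than that SE implies. Col27a1 had 1.93, 2.26 and 0.477 CPM in deletion libraries, against 19.8, 9.999 and 12.7 CPM in WT libraries, a log2 change of -3.15 (SE 0.41, edgeR adjusted p = 3.65e-06). Col11a1, which joins type II fibrils in cartilage, rose instead, with 19.4, 15.8 and 12.5 CPM in deletion libraries, against 4.98, 4.88 and 3.24 CPM in WT libraries, a log2 change of 1.86. Col11a2 had 2.12, 4.25 and 0.572 CPM in deletion libraries, against 1.56, 1.63 and 2.40 CPM in WT libraries, and its value of 0.32 turned to -0.45 without deletion replicate 2. Col24a1 had 1.47, 1.36 and 0.191 CPM in deletion libraries, against 2.18, 0.698 and 2.26 CPM in WT libraries, a log2 difference of -0.72 that was not called.

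**Figure D3:**
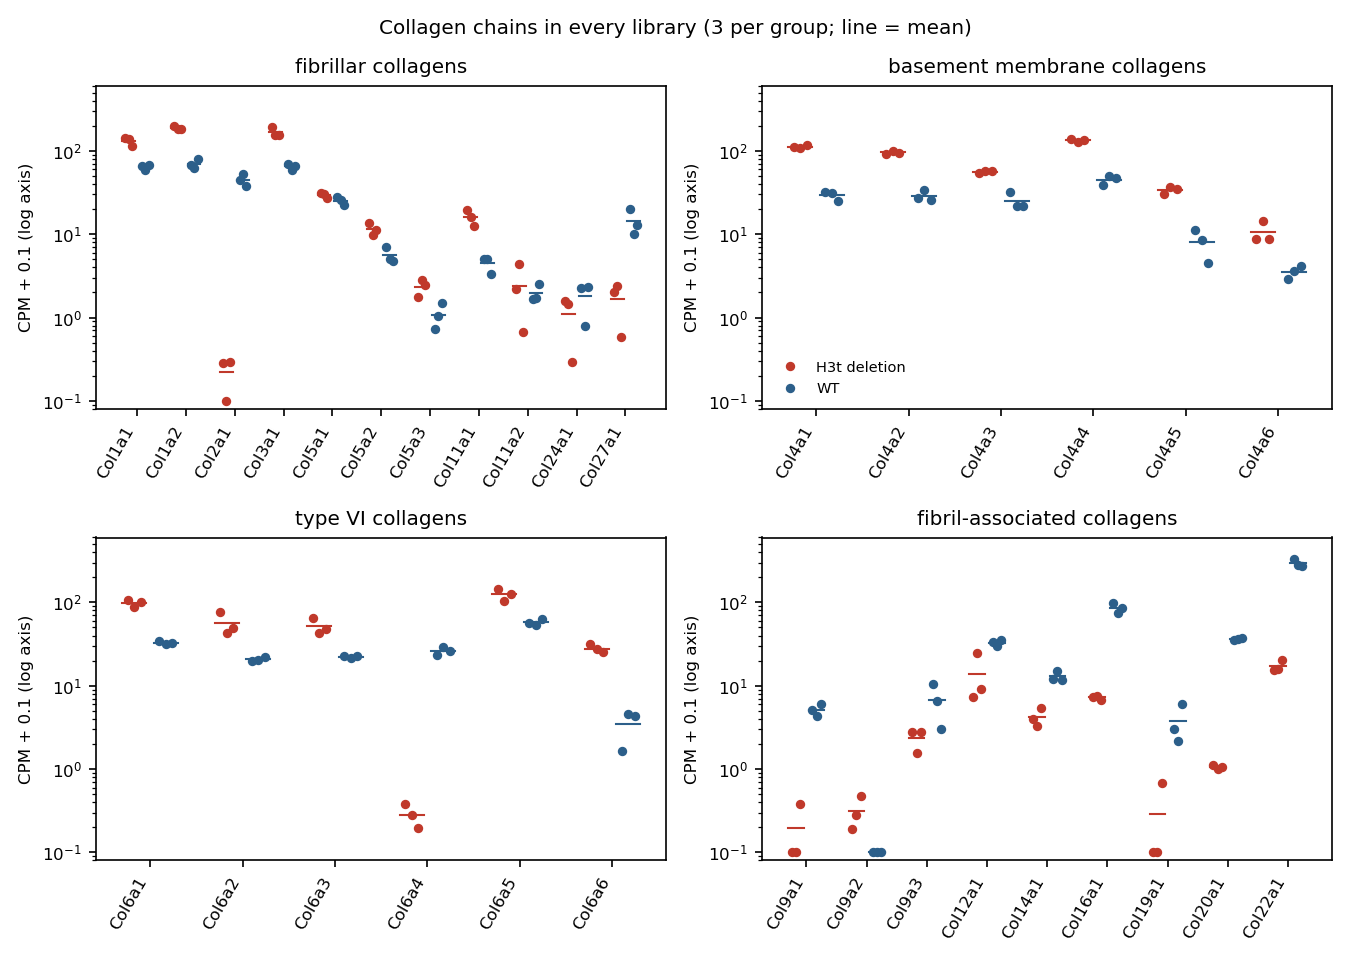
CPM of each chain in every library (log axis, 0.1 added so that zeros can be drawn) for the fibrillar, basement membrane, type VI and fibril-associated classes. Red points are the 3 H3t deletion libraries, blue points to their right the 3 WT libraries, and lines are means. Col2a1 and Col6a4 lie near the bottom of the axis in the deletion and at 37.4 to 52.6 and 23.2 to 29.3 CPM in WT, unlike their class neighbours, and Col22a1 stands above every other WT chain.

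Fibril-associated chains fell without exception among the 8 tested, with a median of -3.84. They stayed below 0 under every scaling used, none of which held a germ cell list level. With no scaling factor 6 of 8 were called lower, and with upper-quartile scaling 7. Col22a1 (ENSMUSG00000079022, chr15:71795795-72034227, minus strand), known from junctions between muscle and tendon, was the most abundant collagen chain of WT testis by counts and per length. It had 15.2, 15.6 and 20.2 CPM in deletion libraries, against 328, 278 and 274 CPM in WT libraries. The log2 change was -4.11 (SE 0.13, edgeR adjusted p = 9.34e-14), or 17.3-fold lower. Col16a1 (chr4:130047840-130099283) had 7.18, 7.51 and 6.67 CPM in deletion libraries, against 97.0, 74.8 and 84.6 CPM in WT libraries, a log2 change of -3.58 (SE 0.15, edgeR adjusted p = 2.50e-12). Col20a1 had 1.013, 0.904 and 0.953 CPM in deletion libraries, against 34.9, 36.4 and 37.5 CPM in WT libraries, a log2 change of -5.22 (SE 0.22, edgeR adjusted p = 3.51e-12). In all 3 the deletion libraries lay within a narrow range, far under every WT library.

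Type XII and type XIV collagens, which coat type I fibrils, fell less. Col12a1 had 7.28, 24.8 and 9.06 CPM in deletion libraries, against 33.2, 29.6 and 35.5 CPM in WT libraries, a log2 change of -1.25 (SE 0.32, edgeR adjusted p = 0.00211). Deletion replicate 2 stood apart, and without it the change was -1.99. Col14a1 had 3.87, 3.17 and 5.34 CPM in deletion libraries, against 11.99, 15.1 and 11.7 CPM in WT libraries, a log2 change of -1.65 (SE 0.26, edgeR adjusted p = 2.99e-05).

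Type IX collagen decorates type II fibrils of cartilage and has 3 chains. Col9a1 had 0, 0 and 0.286 CPM in deletion libraries, against 4.98, 4.19 and 5.92 CPM in WT libraries. With 3 counts over the deletion libraries and 110 over the WT libraries, the ratio of WT to deletion was 53.7 (95% counting interval 17.9 to 264), and edgeR gave a log2 change of -5.56 (SE 0.73, adjusted p = 3.51e-06). Col9a3 had 2.67, 1.45 and 2.67 CPM in deletion libraries, against 10.3, 6.51 and 2.96 CPM in WT libraries, a log2 change of -1.53 (SE 0.44, edgeR adjusted p = 0.00451). WT replicate 3 was close to the deletion libraries, and 6.07% of the exon length of Col9a3 overlaps Tcfl5 on the opposite strand. With no scaling factor the change of Col9a3 was -0.897 and not called. Col9a2 was too low to test, with 7 counts over the deletion libraries and 0 over the WT libraries, where a count of 0 allows up to 3.

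Col19a1, the neighbour of Col9a1 on chromosome 1 with 9205 bases between them, had 0, 0 and 0.572 CPM in deletion libraries, against 2.96, 2.09 and 5.92 CPM in WT libraries. All 6 of its deletion counts were in replicate 3, against 79 over the WT libraries, a ratio of WT to deletion of 19.3 (95% counting interval 8.48 to 54.1) and an edgeR log2 change of -4.19 (SE 0.83, adjusted p = 0.000228). Without deletion replicate 3 the fitted changes of Col19a1 and Col9a1, then at 0 counts in the deletion, were -8.01 and -8.47 and depend on the prior count.

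Of the multiplexins, Col18a1 (ENSMUSG00000001435, chr10:77052178-77166548, minus strand), whose product carries heparan sulfate chains and releases endostatin, had 114, 146 and 158 CPM in deletion libraries, against 11.5, 15.9 and 12.4 CPM in WT libraries. This was the furthest rise of any tested chain, 10.4-fold, with a log2 change of 3.38 (SE 0.15, edgeR adjusted p = 9.55e-12). It was still called higher, at 1.26, with the Sertoli list level, and was 0.18 and not called with the Leydig list level. Col15a1 had 36.4, 32.5 and 32.6 CPM in deletion libraries, against 16.8, 17.3 and 17.1 CPM in WT libraries, a log2 change of 0.99, and fell by 1.14 relative to the Sertoli list.

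Transmembrane collagens, which are held in the cell membrane, were low in all libraries and did not move as a class. Col13a1 had 4.42, 3.07 and 8.96 CPM in deletion libraries, against 1.25, 1.40 and 1.41 CPM in WT libraries, a log2 change of 2.01. Col25a1, best known from neurons, had 0.645, 0.904 and 0.572 CPM in deletion libraries, against 5.92, 8.37 and 9.02 CPM in WT libraries, a log2 change of -3.43 (SE 0.40, edgeR adjusted p = 9.13e-07). The other two were not called with TMM scaling. Col23a1 had 4.51, 5.52 and 5.91 CPM in deletion libraries, against 3.11, 3.26 and 4.37 CPM in WT libraries, a log2 difference of 0.57; the groups were apart, and it was called higher with upper-quartile scaling or no scaling factor. Col17a1, the collagen of hemidesmosomes, had 1.84, 2.98 and 2.96 CPM in deletion libraries, against 3.89, 5.35 and 1.55 CPM in WT libraries, and its value of -0.48 changed sign with upper-quartile scaling.

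Among the rest, Col8a2, of the type VIII network under corneal endothelium, had 3.96, 1.90 and 3.24 CPM in deletion libraries, against 2.02, 0.581 and 0.846 CPM in WT libraries, a log2 change of 1.43 with overlapping groups, and the call was lost without deletion replicate 1, WT replicate 2 or WT replicate 3, and by DESeq2. Its partner Col8a1 stood at 0.921, 0 and 1.81 CPM in deletion libraries and 1.09, 1.40 and 1.97 CPM in WT libraries and was not tested, and Col10a1, of growth plate cartilage, had 0 counts in all 6. Col7a1, which makes the anchoring fibrils of skin, had 4.88, 9.95 and 2.86 CPM in deletion libraries, against 2.49, 3.02 and 2.96 CPM in WT libraries. The groups overlap, and its log2 change of 1.06 was 0.46 and not called without deletion replicate 2; the call was also lost when any WT replicate was left out, with median-of-ratios scaling, and by DESeq2 and limma voom.

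Col28a1 had 2.58, 3.07 and 1.43 CPM in deletion libraries, against 7.16, 4.999 and 4.37 CPM in WT libraries, a log2 change of -1.21 (SE 0.38, edgeR adjusted p = 0.00867). It was no longer called with upper-quartile scaling or no scaling factor, and the same was true of Col12a1. Col26a1, a small collagen first described in testis and ovary, had 0.276, 0.362 and 0 CPM in deletion libraries, against 2.65, 1.74 and 3.81 CPM in WT libraries. With 7 counts over the deletion libraries and 59 over the WT libraries, the ratio of WT to deletion was 12.3 (95% counting interval 5.63 to 32.0), and edgeR gave a log2 change of -3.57 (SE 0.68, adjusted p = 0.000168).

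The chains together took a larger share of the counts of deletion libraries, 0.199% ± 0.00288 in the deletion and 0.0907% ± 0.00411 in WT (SD, n = 3 each), a ratio of 2.20 with no scaling factor. With TMM scaling their sum was 1558 to 1675 CPM in deletion libraries and 1101 to 1194 CPM in WT libraries, a ratio of 1.41. Within the collagen counts, which are not corrected for length, fibril-associated chains made up 2.87% ± 0.608 in the deletion and 41.9% ± 1.75 in WT, and Col22a1 alone held 1.06% in the deletion and 25.8% in WT. Fibrillar chains made up 34.5% ± 1.81 in the deletion and 26.2% ± 0.656 in WT, type VI chains 22.5% ± 2.89 in the deletion and 14.3% ± 0.995 in WT, and multiplexins 10.9% ± 1.65 in the deletion and 2.68% ± 0.325 in WT. As parts of the same total, the shares of these classes rise when the fibril-associated share falls, whatever their own change. For each of these classes the 3 deletion libraries lay on the same side of the 3 WT libraries. These sums are descriptions with no test.

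**Figure D4:**
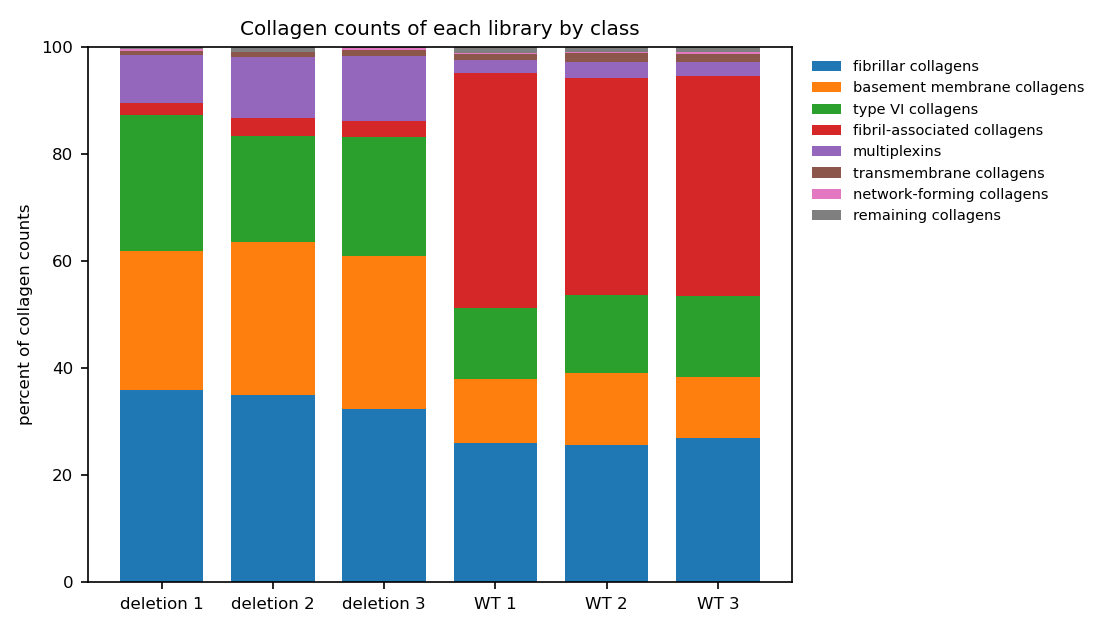
Percent of the collagen counts of each library held by each class, with the 3 H3t deletion libraries on the left and the 3 WT libraries on the right. The fibril-associated band takes 2.23 to 3.44% in deletion libraries and 40.6 to 43.9% in WT libraries, and the libraries of a group look alike.

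Levels of different chains can be compared per length, as mean CPM per kilobase of the union of annotated exons of all isoforms. In the deletion the order began with Col6a1 at 22.7, Col1a1 at 20.1, Col18a1 at 19.9, Col3a1 at 17.02, Col1a2 at 15.2, Col4a1 at 15.0 and Col4a2 at 14.4 CPM per kilobase. In WT it began with Col22a1 at 31.9, Col16a1 at 12.7, Col1a1 at 9.80, Col6a1 at 7.46, Col20a1 at 7.05 and Col3a1 at 6.63 CPM per kilobase. Of the 3 leading WT chains, Col22a1 stood at 1.85 and Col16a1 at 1.05 CPM per kilobase in the deletion. The union counts exons of all isoforms, used here or not, and is 12.4 kilobases for Col1a2 and 6.56 kilobases for Col1a1, so the order of neighbours depends on the annotation.

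Ratios of chains within a library need no scaling factor. Of 13 pairs compared, 9 did not overlap between groups. Single genes did not overlap in 85.9% of all those tested, and the share over other pairs of genes was not computed. For each such pair of chains the two-sided exact test over permuted libraries gave p = 0.1, which 3 against 3 libraries cannot go below. After Benjamini-Hochberg adjustment over the pairs this was 0.144, so none could reach 0.05. The log2 ratio of Col4a1 to Col1a1 was -0.23 ± 0.23 in the deletion and -1.13 ± 0.25 in WT (SD, n = 3 each), a gain of 0.90 for the basement membrane chain. Col6a1 over Col1a1 was -0.41 ± 0.25 in the deletion and -0.98 ± 0.08 in WT, a difference of 0.57. In each deletion library Col4a1 and Col6a1 stood higher against Col1a1 than in any WT library.

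Ratios of chains of the same molecule, or of related ones, were apart in some cases. Col1a1 over Col1a2 was -0.53 ± 0.15 in the deletion and -0.11 ± 0.12 in WT, a difference of -0.42, and Col5a1 over Col5a2 was 1.37 ± 0.25 in the deletion and 2.20 ± 0.21 in WT, a difference of -0.83. Col6a3 over Col6a1 differed by -0.41 and Col3a1 over Col1a1 by 0.32. Among type IV chains, Col4a3 over Col4a1 was -0.99 ± 0.08 in the deletion and -0.25 ± 0.26 in WT, a difference of -0.75. The other 4 pairs, head-to-head neighbours or chains of the same molecule, overlapped between groups. Col4a1 over Col4a2 differed by 0.20 (exact permutation p = 0.2), Col4a3 over Col4a4 by -0.38 (exact permutation p = 0.2), Col4a5 over Col4a6 by 0.61 (exact permutation p = 0.4) and Col6a1 over Col6a2 by 0.18 (exact permutation p = 0.4). The multiplexins parted most, with Col18a1 over Col4a1 differing by 1.45 and Col15a1 over Col4a1 by -0.95.

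**Figure D5:**
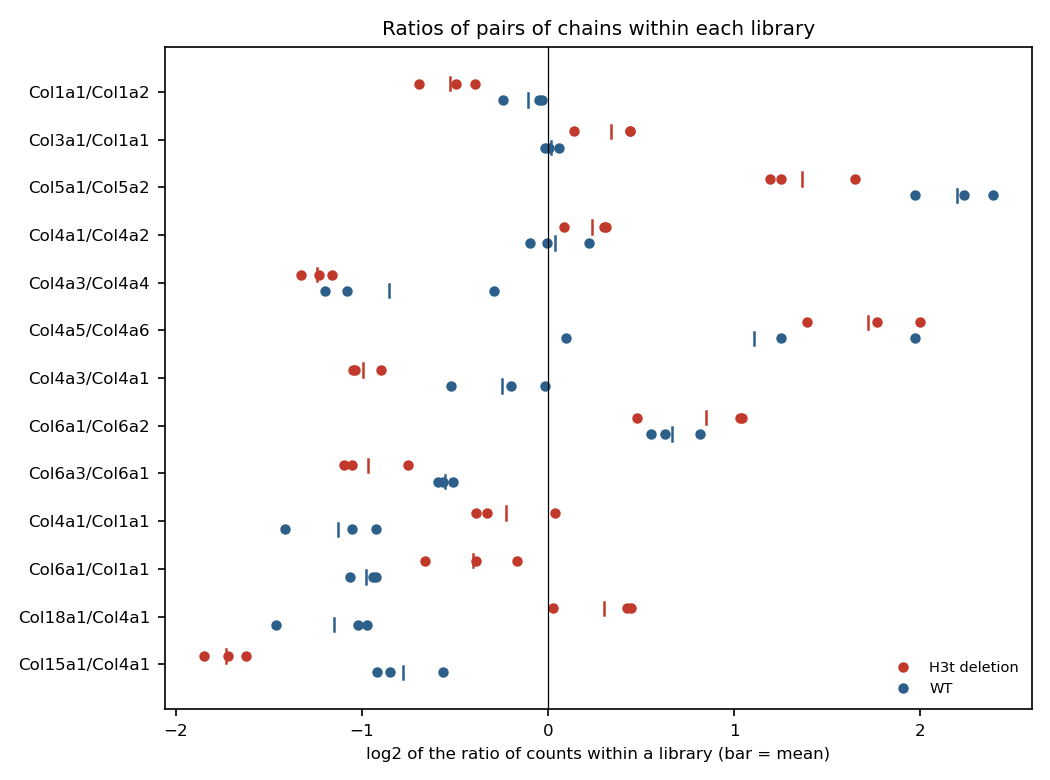
Log2 of the ratio of 2 chains within each library for 13 pairs (0.5 counts added to each). Red points are H3t deletion libraries, drawn above the blue points of WT libraries, and ticks are means. Groups are apart for Col18a1/Col4a1, with means of 0.30 in the deletion and -1.15 in WT, and overlap for Col4a1/Col4a2, Col4a3/Col4a4, Col4a5/Col4a6 and Col6a1/Col6a2.

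Genes that make, process and bind collagen were counted beside the chains, with TMM scaling, where 38.4% of all genes rose and 46.1% fell. Like the chains, they turned with the Leydig list level, where 15450 of all 17038 genes were lower. There edgeR called 1 of the synthesis genes and 0 of each other list higher, with 1 receptor higher at an unadjusted p under 0.05. With the Sertoli list level 749 of all genes were higher and 12962 lower. Of 18 tested enzymes and chaperones of collagen synthesis, 16 rose and 1 fell, with a median of 1.67, and with the Sertoli list level 2 were higher and 10 lower. Plod2, a lysyl hydroxylase, averaged 143 ± 6.29 CPM in deletion libraries against 10.9 ± 1.83 CPM in WT libraries (SD, n = 3 each), a log2 change of 3.69; the prolyl hydroxylase subunits P4ha1 and P4hb changed by 1.93 and 1.24. Mia3, which helps procollagen leave the endoplasmic reticulum, averaged 159 ± 9.68 CPM in deletion libraries against 219.9 ± 9.13 CPM in WT libraries and was the member that fell, by 0.47; its sign turned, to 0.076 with upper-quartile scaling and 0.17 with no scaling factor, both not called. Of 11 tested genes for procollagen trimming and cross-linking, 8 were higher and 0 lower (median 1.74), as by DESeq2 and limma voom and at an unadjusted p under 0.05 in edgeR, while with the Sertoli list level 1 was higher and 4 lower. Pcolce, which enhances removal of the C-terminal propeptide, changed by 2.19, the N-propeptidase Adamts2 by 1.60 and the type IV cross-linking peroxidasin Pxdn by 1.21, while Adamts3, Lox and Loxl1 were not called.

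Partners of the basement membrane chains moved with them: all 12 tested laminin, nidogen and proteoglycan genes rose, with a median of 2.07, against 4 higher and 4 lower with the Sertoli list level and 11 of 12 higher with median-of-ratios scaling, DESeq2 or limma voom, among them Lama2 by 1.73, Lamb2 by 2.82 and Lamb1 by 2.50. Nid2, whose call those settings did not make, differed by 0.37 with overlapping groups. Fibril-binding genes were mostly higher, 10 of 13 tested, with 1 lower (median 1.29), but 0 were higher and 8 lower with the Sertoli list level. Sparc, a collagen-binding glycoprotein, averaged 1146 ± 23.7 CPM in deletion libraries against 249 ± 14.8 CPM in WT libraries, and the fibril-coating proteoglycan Dcn averaged 191 ± 14.2 CPM in deletion libraries against 49.3 ± 6.81 CPM in WT libraries. Comp, a cartilage glycoprotein that binds type II and type IX collagens, averaged 0.310 ± 0.112 CPM in deletion libraries against 219 ± 2.37 CPM in WT libraries, a log2 change of -9.41 (SE 0.18, edgeR adjusted p = 1.17e-15). Comp had 10 counts over the deletion libraries, so this SE understates the counting error.

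Of 9 tested collagen receptors, 5 rose and 3 fell. With the Sertoli list level 1 was higher and 4 lower, where 749 of all 17038 genes were higher and 12962 lower. The integrin beta subunit Itgb1 changed by 1.96, the adhesion receptor Adgrg1 by 2.31 and the discoidin receptor Ddr1 by 3.57. Of the 4 alpha subunits that pair with Itgb1 to bind collagen, 3 were lower, Itga1 at -1.49, Itga11 at -2.30 and Itga2 at -4.09 on the log2 scale, and Itga10, with 11 counts in each group, was too low to test.

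Marker lists of the cells that could supply collagen moved in the same section. Beside them, 38.4% of all genes tested rose with TMM scaling and 46.1% fell. Summed CPM of 10 peritubular myoid and smooth muscle genes was 736 to 795 in deletion libraries and 644 to 666 in WT libraries, with 8 higher and 1, Actg2, lower at -5.49. Actg2 alone gave 349 to 368 CPM of the WT sums and 6.69 to 8.96 CPM of the deletion sums. The sums therefore understate the rise of most other members. Summed CPM of 11 interstitial mesenchyme genes was 769 to 828 in deletion libraries and 177 to 208 in WT libraries, with 6 higher and 2, Pi16 and Mfap5, lower. With the myoid list level 18 chains were higher and 16 lower, where 4617 of all 17038 genes were higher and 9251 lower. Without Actg2 in that list 6 chains were higher and 17 lower. With the mesenchyme list level 10 chains were higher and 17 lower, where 3409 of all genes were higher and 10329 lower. Without Pi16 and Mfap5 in it 2 chains were higher and 26 lower. The most abundant members of these lists were Myh11 and Actg2, and Gsn and Pdgfra. Among 12 endothelial genes, led by Ptprb and Cdh5, 8 rose, with sums of 151 to 166 CPM in deletion libraries and 77.4 to 80.8 CPM in WT libraries, and among 12 macrophage genes, led by Mrc1 and Mpeg1, 11 rose, with sums of 562 to 654 CPM in deletion libraries and 121 to 132 CPM in WT libraries. No marker of these 4 lists was at 0 in either group, and their part in the chain changes was not tested beyond these scalings.

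Markers of tissue at the edge of a section were low or mixed. Of the mesothelial list, 3 of 6 genes were tested, with Lrrn4 higher and Muc16 lower. Its sums were 28.2 to 38.2 CPM in deletion libraries and 74.99 to 96.8 CPM in WT libraries. Muc16 alone gave 69.2 to 91.5 CPM of the WT sums, and Lrrn4 22.5 to 23.2 CPM of the deletion sums. Of the duct epithelium list 3 of 5 were tested, with Krt18 higher and Krt8 lower, sums of 6.51 to 14.7 CPM in deletion libraries and 11.9 to 20.1 CPM in WT libraries, and Pax8 at 0 in WT. Of the fat cell list 2 of 4 were tested, with Plin1 higher and Adipoq lower, and sums of 6.69 to 21.6 CPM in deletion libraries and 5.07 to 6.07 CPM in WT libraries. Their part in the chain changes was not tested.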

How the data were processed

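Per the labels' protocols, a SMART-Seq kit that keeps the strand was used on RNA from cryosectioned testis, for 3 H3t deletion and 3 WT samples. The authors deposited raw counts per Ensembl gene, made with Trim Galore, HISAT2, GRCm38 and featureCounts, per the submitters' processing notes. Neither tool versions nor how strand was handled in counting is given in the sources used here, and reads over exons that overlap on opposite strands cannot be assigned.

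The analysis used edgeR 4.0.16 in R 4.3.3: filterByExpr, TMM scaling and the quasi-likelihood test, with p-values adjusted by Benjamini-Hochberg over 17038 genes and called under 0.05. The biological coefficient of variation was 13.1%. Each SE of a log2 change is its absolute value over the square root of the test's F statistic. Where a group has few counts, it can be smaller than counting error. 1 count was worth 0.0904 to 0.156 CPM, and intervals and floors cover counting error only. Libraries of a group differed by more than sampling noise (chi-square over its degrees of freedom, 4.48 to 6.88). The steps were first checked on simulated counts. Coordinates and exon lengths came from GENCODE M21 and promoters from RefSeq.

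The chains, classes and lists were chosen with earlier results of these data known. Values per library were given for each tested fibrillar, Col4a and Col6a chain and for other chains that were called or averaged at least 1 CPM, with full statistics for up to 3 chains a class and for each chain that fell. From each list of related genes up to 3 abundant called genes and every member of the minority direction were named, and from each marker list the 2 most abundant. Col8a1, Col9a2, Col10a1 and the listed genes that were not called or not tested, and Nid2, were named after their values were seen. Alternatives were other scalings, filters, thresholds, denominators and priors, DESeq2 1.42.0, limma 3.58.1 (voom), each library left out in turn, and other lists held level. The lists without Actg2 or without Pi16 and Mfap5 were added after seeing the data.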

Additional observations from a re-analysis of the deposited data

How the results depend on the processing

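With a library left out, 19 to 21 chains were higher and 14 lower, and 6356 to 6591 of all genes were higher and 7899 to 8287 lower; non-overlapping pairs numbered 9 to 11. Set against the Sertoli list, 2 chains were higher and 30 to 33 lower. With all 6 libraries, 12962 of all 17038 genes were lower against that list. DESeq2 gave 19 higher and 14 lower, limma voom 21 and 14, a false discovery rate of 0.01 19 and 14, and the test against a 1.5-fold change 20 and 14. Leaving aside scalings to a cell type list, under which 20 (Sertoli) or 21 (Leydig) of the 22 rises turned negative, 533 alternative values of single chains were computed, and 502 kept direction and call, 23 lost the call, 4 gained it and 4 changed sign. These sign changes were Col17a1 at 0.062 with upper-quartile scaling and 0.16 with no scaling factor, and Col11a2 at -0.067 with limma voom and, over the libraries left out, between -0.45 (without deletion replicate 2) and 0.78. Other lists in place of the Sertoli list gave 0 higher (Leydig), 18 higher and 16 lower (myoid), 10 higher and 17 lower (mesenchyme) and 6 higher and 17 lower (myoid without Actg2). As a share of protein-coding, non-mitochondrial counts, collagen was 0.268% in the deletion and 0.1002% in WT; with a library left out the share of all counts was 0.197 to 0.200% in the deletion and 0.0883 to 0.0919% in WT. The cause of these moves was not tested. With no list held level, edgeR, DESeq2 and limma voom each called 0 basement membrane chains lower and 0 fibril-associated chains higher. No paired analysis was possible because the groups have no animal number of the sample titles in common, and replicate numbers here follow the order of deposit. Depth limits chains under about 1 CPM.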
